A study of Homo sapiens with 16 samples.

Results

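The polyamine genes described here are ODC1, AMD1, SRM, SMS, SAT1, SMOX, OAZ1, OAZ2 and AZIN1. They form a list of genes grouped by function, drawn up with earlier results of these data known, and were matched to array probe sets through the gene annotation of the array. All 9 were measured, among 19777 genes in all. The arrays came from MIA PaCa-2, an established human pancreatic cancer line, exposed for 12 hours to PP242 at 2.5 µM, which blocks the kinase activity of mTOR, or to DMSO, its vehicle. In all, 2 RNA pools were profiled from these dishes: cytosolic RNA, called Total in the labels, and RNA that carried more than 3 ribosomes on a 10% to 50% sucrose gradient, called Poly. The 4 groups, Total NT (vehicle, cytosolic), Total 242 (PP242, cytosolic), Poly NT (vehicle, polysome) and Poly 242 (PP242, polysome), had 4 arrays each. The groups share 1 cell line, 1 dose and 1 time, so the values describe this line at this time alone. The comparisons ask how PP242 changed each mRNA in the polysome pool, in the cytosolic pool, and in the first beyond the second.

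Polyamines are small, positively charged metabolites that bind RNA and support protein synthesis and growth. Ornithine decarboxylase (ODC1) makes putrescine, S-adenosylmethionine decarboxylase (AMD1) provides the aminopropyl donor, and spermidine synthase (SRM) and spermine synthase (SMS) build the longer polyamines, while SAT1 and SMOX run the route backwards. The antizymes OAZ1 and OAZ2 bind ODC1 and send it to the proteasome, the antizyme inhibitor AZIN1 captures antizyme, and the mRNAs of ODC1, AMD1, the antizymes and AZIN1 are textbook cases of control at the level of translation.

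With PP242, SAT1 of the catabolic enzymes rose in both pools, about 2.11-fold on polysomes and 1.79-fold in the cytosol, and SMOX rose on polysomes at the probe set that stands for it. Among the synthetic enzymes AMD1 fell 1.69-fold in the cytosol and SRM fell 1.43-fold on polysomes, whereas ODC1 and SMS passed the test in neither pool. Of the regulators, OAZ1 fell 1.30-fold in the cytosol, and OAZ2 and AZIN1 passed in neither pool. With the replicate number as a block, which pairs the arrays, AMD1 also passed as lower on polysomes and OAZ2 as lower in both pools. In polysome RNA 3 of the 9 genes passed limma at an adjusted p under 0.05 (2 higher, 1 lower), beside 13.4% of all genes, of which 6.82% higher and 6.55% lower. In cytosolic RNA 3 of 9 passed as well (1 higher, 2 lower), beside 16.4% of all genes, of which 8.54% higher and 7.91% lower. These shares include dim genes, while all 9 members were above the median gene level. Tested over genes above that level alone, 2712 genes and 4 members passed on polysomes. In the cytosol 3153 genes and 4 members did. The share called was thus higher among bright genes than among all genes, a limit that also holds for the shares given below. The median effect over the 9 genes was -0.32 on the log2 scale in polysome RNA and -0.13 in cytosolic RNA, where the medians of all genes were -0.005 and 0.04. Levels below are log2 probe set signals, listed for replicates 1 to 4. Differences are log2 PP242 minus vehicle with the standard error of the limma contrast, n = 4 arrays per group, and p-values are adjusted by Benjamini-Hochberg over all genes.

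**Figure D1:**
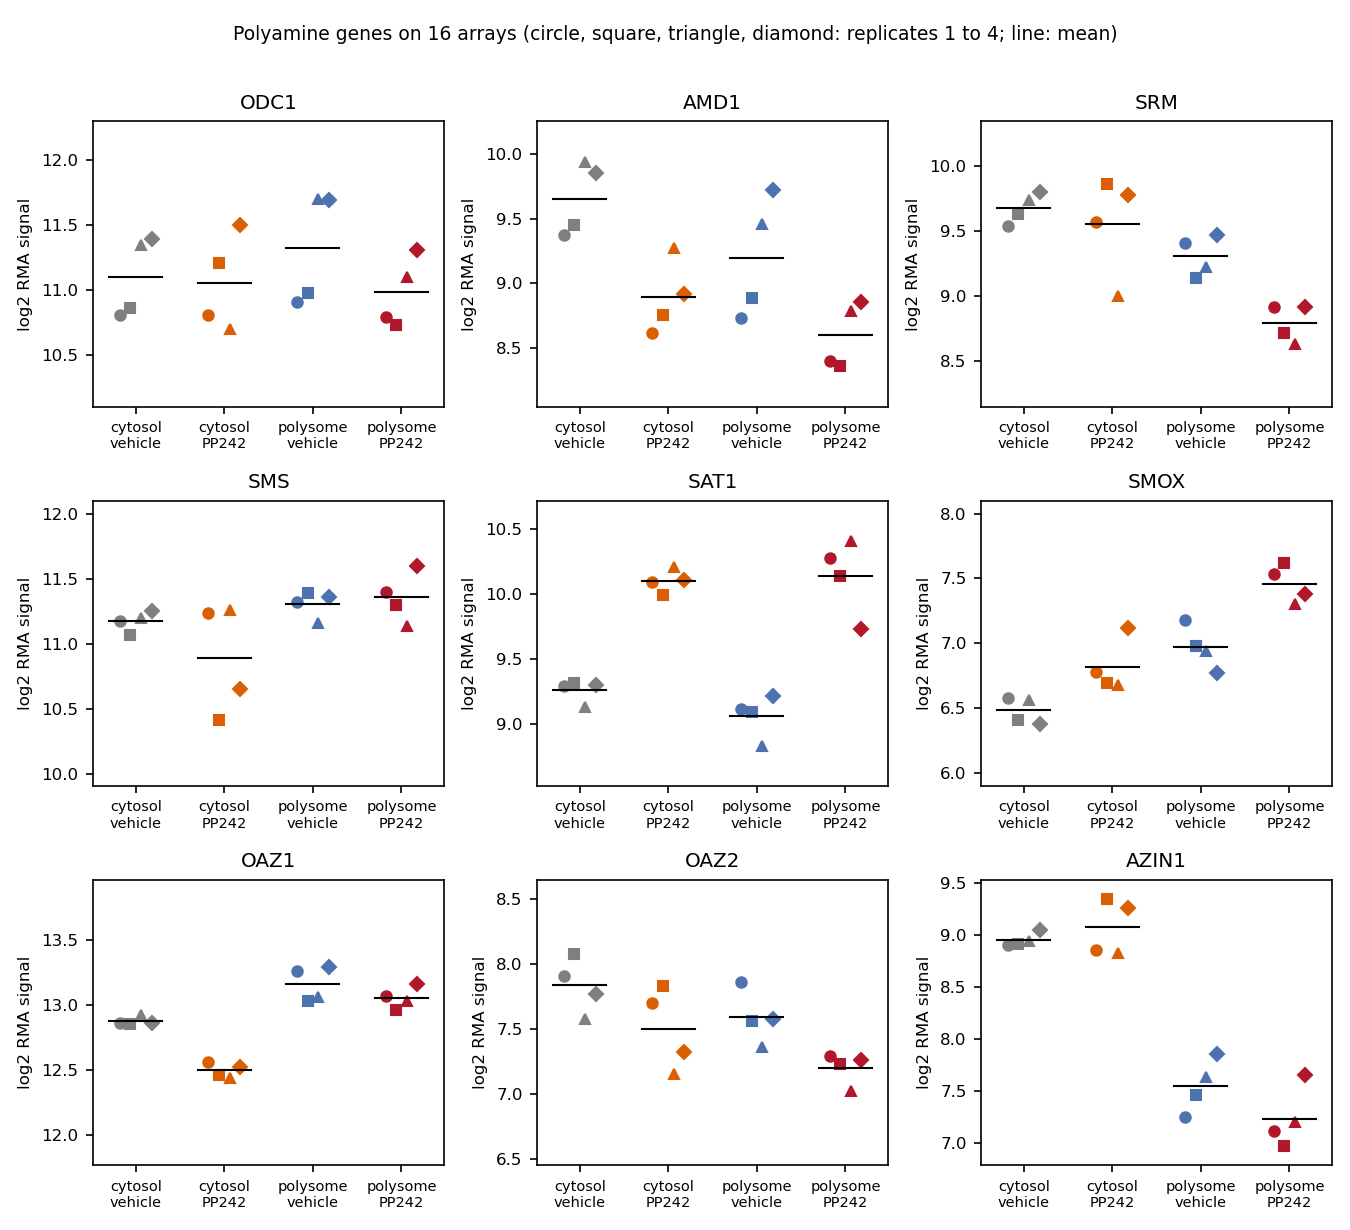
Log2 probe set signal of the 9 polyamine genes, 1 panel per gene, in the 4 groups; each point is 1 array and the bar is the group mean. SAT1 lay between 8.83 and 9.31 in vehicle arrays and between 9.73 and 10.41 in PP242 arrays over both pools, and AMD1 in cytosolic RNA lay between 9.37 and 9.94 in vehicle and between 8.62 and 9.27 with PP242.

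ODC1, the decarboxylase that opens the pathway, is on chromosome 2 (GRCh38.p14, bases 10439968 to 10448327). In cytosolic RNA its level was 10.81, 10.86, 11.35 and 11.39 in vehicle arrays and 10.81, 11.21, 10.70 and 11.50 with PP242. In polysome RNA it was 10.91, 10.98, 11.70 and 11.69 in vehicle arrays and 10.79, 10.73, 11.10 and 11.31 with PP242. The groups overlapped in both pools, and the vehicle arrays were split, with replicates 3 and 4 above replicates 1 and 2 by 0.54 in cytosolic and 0.75 in polysome RNA. This split is not particular to ODC1. The gap for AMD1 was 0.485 and 0.78, and over all genes replicates 1 and 2 stood apart from replicates 3 and 4. The difference was -0.34 ± 0.21 on polysomes (adjusted p = 0.391; 95% interval -0.79 to 0.11) and -0.05 ± 0.21 in the cytosol (adjusted p = 0.907). Paired by replicate number, the polysome level was lower with PP242 in 4 of 4 numbers, by a mean of -0.19 in numbers 1 and 2 and of -0.49 in numbers 3 and 4. With the replicate number as a block the polysome difference had an adjusted p of 0.104.

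AMD1, the decarboxylase that supplies the aminopropyl donor, is on chromosome 6 (110814617 to 110895713). Its cytosolic level was 9.37, 9.45, 9.94 and 9.85 in vehicle arrays and 8.62, 8.76, 9.27 and 8.92 with PP242. On polysomes it was 8.73, 8.89, 9.46 and 9.72 in vehicle arrays and 8.40, 8.36, 8.79 and 8.86 with PP242. Every cytosolic PP242 array was below every cytosolic vehicle array, whereas on polysomes the groups overlapped with vehicle replicates 1 and 2 low. AMD1 fell by 0.76 ± 0.21 in cytosolic RNA (limma, adjusted p = 0.0163). On polysomes the difference was -0.60 ± 0.21 (adjusted p = 0.0663), and with the replicate number as a block it passed (adjusted p = 6.06e-04), with a lower value in 4 of 4 numbers. The polysome difference also passed in limma with array weights (-0.70, adjusted p = 0.0174) and among genes above the median level (adjusted p = 0.0448). Of 16 alternatives run for it, 4 passed and 12 did not. The second AMD1 probe set, 201196_s_at, gave -0.59 in the cytosol (adjusted p = 0.0303) and -0.50 on polysomes (adjusted p = 0.0810). The cytosolic call was lost without replicate 2 (-0.78, adjusted p = 0.0744), without replicate 4 (-0.70, 0.0748) and without Total 242 arrays 2 and 4 (-0.71, 0.118).

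SRM joins putrescine to the aminopropyl group to make spermidine, and its gene is on chromosome 1 (11054589 to 11060018). In the cytosol its level was 9.54, 9.63, 9.74 and 9.80 in vehicle arrays and 9.57, 9.86, 9.0 and 9.78 with PP242. On polysomes it was 9.41, 9.14, 9.22 and 9.47 in vehicle arrays and 8.91, 8.71, 8.63 and 8.91 with PP242. The cytosolic groups overlapped and 1 PP242 array, replicate 3, was far below the rest, while all 4 polysome PP242 arrays lay below all 4 polysome vehicle arrays. SRM fell by 0.52 ± 0.16 on polysomes (limma, adjusted p = 0.0309, 0.00779 with the block), and the cytosolic difference was -0.13 ± 0.16 (adjusted p = 0.632). The polysome call was lost without replicate 1 (adjusted p = 0.132), 2 (0.0893) or 4 (0.114), under quantile scaling over all arrays (-0.41, 0.0812), and within numbers 1 and 2 (-0.47, 0.0767) and 3 and 4 (-0.57, 0.243), while its direction was lower in 4 of 4 numbers.

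SMS, which turns spermidine into spermine, is on chromosome X (21940709 to 21994837). On polysomes it was at 11.32, 11.39, 11.16 and 11.36 in vehicle arrays and 11.40, 11.30, 11.14 and 11.60 with PP242. In the cytosol it was at 11.18, 11.07, 11.20 and 11.25 in vehicle arrays and 11.24, 10.41, 11.26 and 10.65 with PP242. The polysome groups lay in the same range, and in the cytosol only arrays 2 and 4 of Total 242 were low while arrays 1 and 3 were at the vehicle level. The differences were 0.05 ± 0.16 on polysomes (adjusted p = 0.908) and -0.29 ± 0.16 in the cytosol (adjusted p = 0.239), the latter 0.08 without those 2 arrays.

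The same arrays 2 and 4 of Total 242 stood apart over the whole table. They had the lowest limma array weights, 0.360 and 0.251, and the median SD of a gene was 0.245 in Total 242 against 0.122 to 0.159 in the other groups. Beside SMS they were low at probe set 203455_s_at of SAT1 and at 201772_at of AZIN1, and high at 212461_at of AZIN1. Without them the cytosolic differences at the main probe sets were -0.35 for ODC1, -0.39 for SRM, 0.08 for SMS, 0.89 for SAT1, 0.25 for SMOX, -0.37 for OAZ1, -0.41 for OAZ2 and -0.11 for AZIN1. For SRM the low array was replicate 3, which this subset keeps. Without replicate 3 in all groups its cytosolic difference was 0.08.

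Promoter bases are shown for SRM, AMD1 and SAT1, whose mRNAs passed in at least 1 pool, and for ODC1, the entry enzyme. They are the 250 bases before the first start listed by RefSeq in GRCh38.p14, written 5′ to 3′ on the strand of the gene, in lower case with motif matches in capitals. The 3 motifs below were searched on both strands: the E-box CACGTG, bound by MYC and related factors, the core of the cAMP response element (CRE), TGACGT, and the core of the antioxidant response element, TGACNNNGC, which can share its first letters with the CRE core. SRM (chr1:11060019-11060268, minus strand) held 1 E-box, at base -199 from the start, and the first ODC1 window (chr2:10448328-10448577, minus strand) held 1 CRE core, at base -178 from its start; a TGACNNNGC match on the other strand crossed that start. AMD1 (chr6:110874535-110874784, plus strand) and SAT1 (chrX:23782923-23783172, plus strand) held none of the 3 motifs in these windows.
SRM: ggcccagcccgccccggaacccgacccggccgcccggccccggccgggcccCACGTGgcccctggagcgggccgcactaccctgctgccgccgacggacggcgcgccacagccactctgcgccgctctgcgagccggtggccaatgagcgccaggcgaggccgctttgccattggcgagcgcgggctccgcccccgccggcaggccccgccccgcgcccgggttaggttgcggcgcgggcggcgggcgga
ODC1: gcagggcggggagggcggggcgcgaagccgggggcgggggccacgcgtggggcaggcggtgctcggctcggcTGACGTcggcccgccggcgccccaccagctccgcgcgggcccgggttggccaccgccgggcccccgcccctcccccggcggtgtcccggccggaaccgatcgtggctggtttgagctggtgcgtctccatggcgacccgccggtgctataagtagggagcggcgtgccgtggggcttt
AMD1: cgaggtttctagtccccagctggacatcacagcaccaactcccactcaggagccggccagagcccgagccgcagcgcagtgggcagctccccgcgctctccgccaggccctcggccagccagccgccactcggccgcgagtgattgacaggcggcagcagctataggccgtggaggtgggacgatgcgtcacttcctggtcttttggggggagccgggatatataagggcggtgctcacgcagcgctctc
SAT1: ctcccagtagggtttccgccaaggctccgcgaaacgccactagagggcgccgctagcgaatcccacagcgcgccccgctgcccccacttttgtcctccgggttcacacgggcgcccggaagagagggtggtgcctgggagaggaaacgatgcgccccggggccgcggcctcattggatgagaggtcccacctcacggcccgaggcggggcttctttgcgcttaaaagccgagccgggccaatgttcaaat
At the second listed start of ODC1 an E-box lay at base -29 (chr2:10448024-10448053, minus strand, 30 bases shown), and another, not shown, at base 6 after that start (chr2:10448002-10448007).
ODC1 E-box: ccgggccccgggCACGTGtgcggcgcgcct
Of 35116 upstream windows of the same length in the RefSeq table, 6.34% held CACGTG, 7.10% held TGACGT and 10.9% held TGACNNNGC. Of the 9 genes, 7 had an entry in that table, and SMS, OAZ1 and OAZ2 held none of the motifs upstream. A match is a description of letters, and binding was not measured here.

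SAT1, the acetyltransferase that marks spermidine and spermine for export or oxidation, is on chromosome X (23783173 to 23786210). Its cytosolic level was 9.29, 9.31, 9.13 and 9.30 in vehicle arrays and 10.09, 9.99, 10.21 and 10.11 with PP242. Its polysome level was 9.11, 9.09, 8.83 and 9.21 in vehicle arrays and 10.28, 10.14, 10.41 and 9.73 with PP242. The treatment groups did not overlap in either pool, and the lowest PP242 value, polysome replicate 4, was still above all vehicle arrays. SAT1 rose by 1.08 ± 0.13 on polysomes (limma, adjusted p = 1.38e-05) and by 0.84 ± 0.13 in the cytosol (adjusted p = 1.90e-04). Among all genes the polysome rise stood at percentile 99.2 and the cytosolic rise at percentile 98.5.

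SAT1 was read by 3 single-gene probe sets, and the polysome rise appeared in each. Probe set 203455_s_at gave 1.06 ± 0.32 (adjusted p = 0.0389) and 213988_s_at gave 0.86 ± 0.16 (adjusted p = 0.00125) on polysomes. In the cytosol 213988_s_at gave 0.83 ± 0.16, but 203455_s_at gave 0.01 ± 0.32 (adjusted p = 0.986). At 203455_s_at the Total 242 arrays were at 10.30, 8.98, 10.41 and 8.45, against 9.81, 9.55, 9.35 and 9.38 in vehicle. Its arrays 1 and 3 were above all vehicle arrays and its arrays 2 and 4, which stood apart over the whole table, were below them. Over arrays 1 and 3 alone its cytosolic difference was 0.83, beside 0.67 at 213988_s_at and 0.89 at 210592_s_at.

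SMOX, the oxidase that turns spermine back into spermidine and releases hydrogen peroxide, is on chromosome 20 (4148828 to 4187727). At the probe set with the highest mean, 210357_s_at, its polysome level was 7.18, 6.98, 6.94 and 6.77 in vehicle arrays and 7.53, 7.62, 7.30 and 7.38 with PP242. Its cytosolic level was 6.58, 6.41, 6.56 and 6.38 in vehicle arrays and 6.78, 6.69, 6.68 and 7.12 with PP242. The groups did not overlap in either pool at this probe set. SMOX rose by 0.49 ± 0.13 on polysomes (limma, adjusted p = 0.0117), and the cytosolic difference was 0.34 ± 0.13 (adjusted p = 0.0751). The other probe sets had the opposite sign on polysomes, -0.23 ± 0.14 at 1555680_a_at (adjusted p = 0.398) and -0.17 ± 0.16 at 217074_at (adjusted p = 0.639), and the mean of the 3 was 0.03 (adjusted p = 0.922). Without replicate 2 the call at 210357_s_at was lost (0.44, adjusted p = 0.106), as it was within numbers 3 and 4 (0.48, adjusted p = 0.188).

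**Figure D2:**
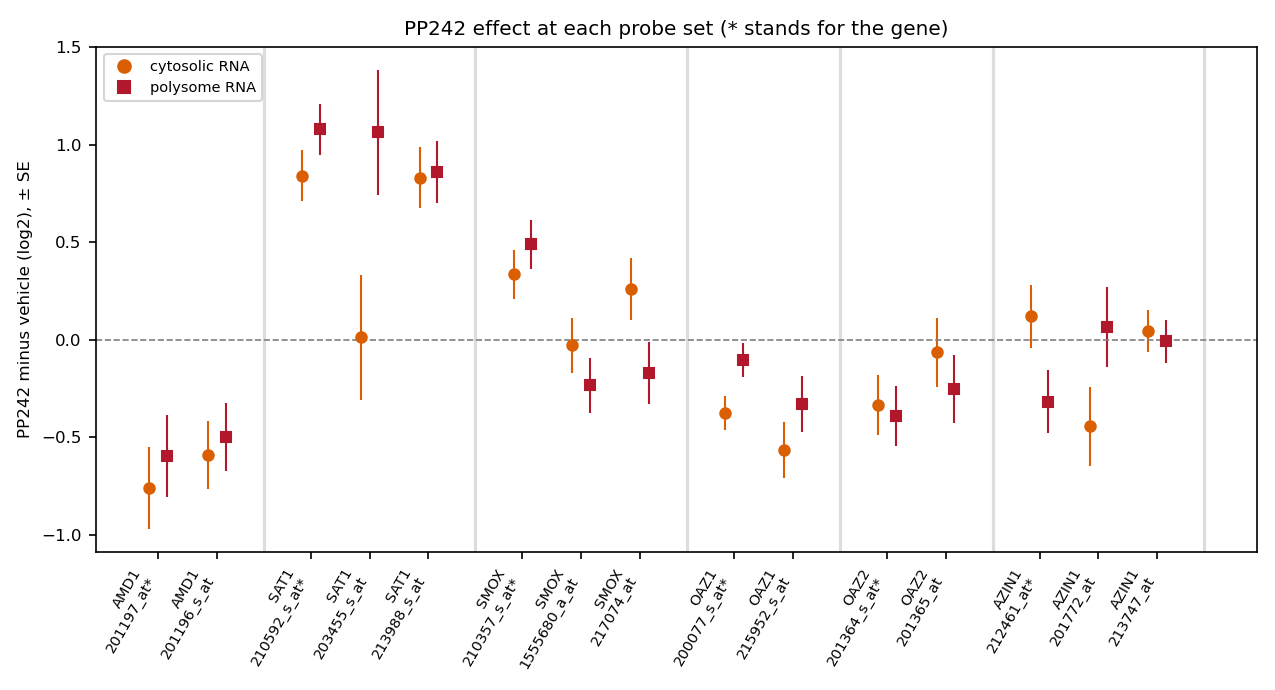
PP242 minus vehicle (log2) at every single-gene probe set of the 6 members that had several, in polysome and cytosolic RNA. Bars are the standard error of the limma contrast. ODC1, SRM and SMS had 1 probe set each and are not drawn. The 3 SAT1 probe sets lay between 0.86 and 1.08 on polysomes, whereas the SMOX probe sets lay at 0.49, -0.23 and -0.17.

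OAZ1, the main antizyme, whose mRNA is read through a ribosomal frameshift that polyamines promote, is on chromosome 19 (2269486 to 2273488). Its cytosolic level was 12.86, 12.85, 12.92 and 12.86 in vehicle arrays and 12.56, 12.46, 12.44 and 12.52 with PP242. Its polysome level was 13.26, 13.03, 13.06 and 13.29 in vehicle arrays and 13.07, 12.96, 13.03 and 13.16 with PP242. The cytosolic groups were apart and the polysome groups overlapped. OAZ1 fell by 0.38 ± 0.08 in the cytosol (limma, adjusted p = 0.00432), and the second probe set, 215952_s_at, fell by 0.57 ± 0.14 (adjusted p = 0.0132). The polysome difference was -0.10 ± 0.08 (adjusted p = 0.535) and -0.33 ± 0.14 at the second probe set (adjusted p = 0.187). With cyclic loess over all arrays the polysome difference turned to 0.05. The cytosolic call was lost within numbers 1 and 2 (-0.34, adjusted p = 0.0909) and within numbers 3 and 4 (-0.41, 0.140), where each fit holds 2 arrays per group.

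OAZ2, the second antizyme, is on chromosome 15 (64687574 to 64703281). Its polysome level was 7.86, 7.56, 7.36 and 7.58 in vehicle arrays and 7.29, 7.23, 7.02 and 7.26 with PP242. Its cytosolic level was 7.91, 8.08, 7.58 and 7.77 in vehicle arrays and 7.70, 7.83, 7.15 and 7.32 with PP242. All polysome PP242 arrays were below all polysome vehicle arrays, by a narrow gap, and the cytosolic groups overlapped. The differences were -0.39 ± 0.15 on polysomes (adjusted p = 0.114) and -0.34 ± 0.15 in the cytosol (adjusted p = 0.153). With the replicate number as a block OAZ2 passed in both pools (adjusted p = 0.0139 and 0.0292), with lower values in 4 of 4 numbers. The second probe set, 201365_at, gave -0.25 ± 0.18 on polysomes and -0.06 ± 0.18 in the cytosol (adjusted p = 0.491 and 0.849).

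AZIN1, the inactive relative of ODC1 that frees it from antizyme, was read by 3 probe sets. At 212461_at, which stands for it, the cytosolic level was 8.91, 8.92, 8.94 and 9.05 in vehicle arrays and 8.86, 9.35, 8.83 and 9.26 with PP242. On polysomes it was 7.25, 7.46, 7.63 and 7.86 in vehicle arrays and 7.11, 6.97, 7.20 and 7.65 with PP242. The treatment groups overlapped in both pools. The difference was -0.32 ± 0.16 on polysomes (adjusted p = 0.248), lower in 4 of 4 numbers, and 0.12 ± 0.16 in the cytosol (adjusted p = 0.661). The second probe set, 201772_at, gave 0.07 ± 0.20 on polysomes and -0.45 ± 0.20 in the cytosol (adjusted p = 0.923 and 0.166). Its Total 242 arrays were at 8.51, 7.40, 8.11 and 7.18 against 8.22 to 8.29 in vehicle, and over arrays 1 and 3 alone its cytosolic difference was 0.07.

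**Figure D3:**
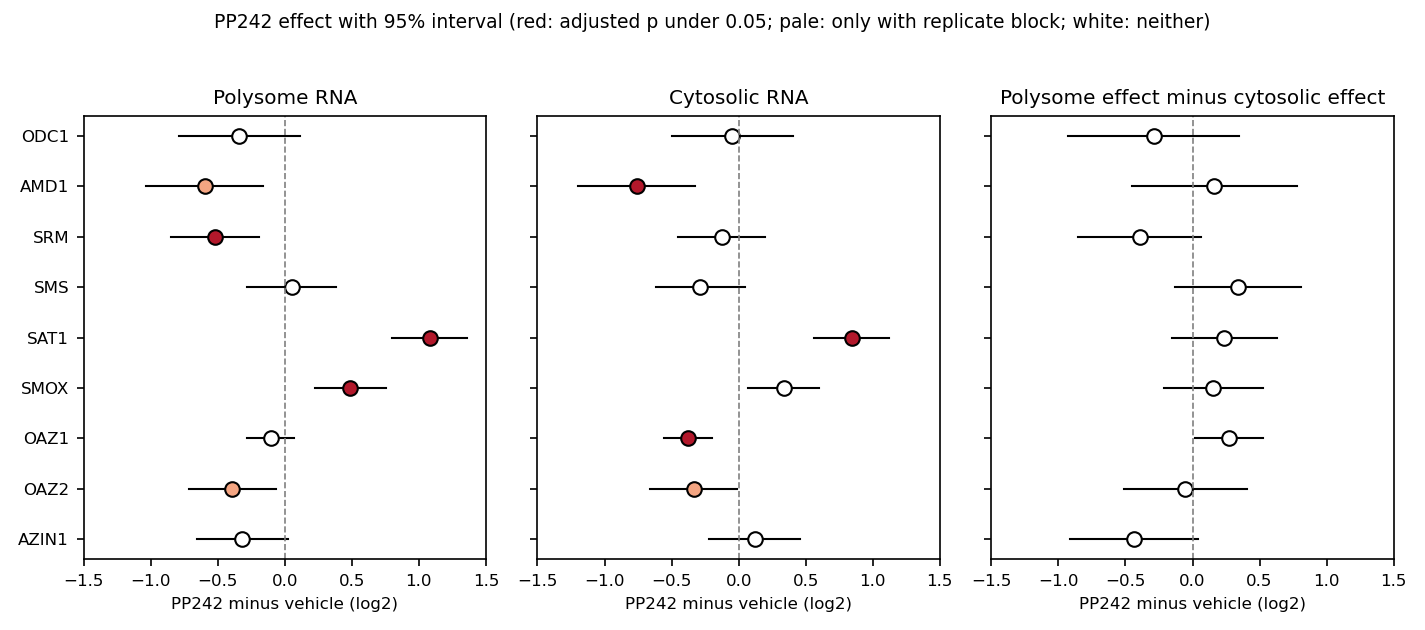
PP242 minus vehicle (log2) for the 9 genes in polysome RNA, in cytosolic RNA and as the difference between them (polysome association), with 95% intervals of the limma contrast. SAT1 is the highest in both pools (1.08 and 0.84), AMD1 the lowest (-0.60 and -0.76), and none of the 9 association values passed the test.

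Counted with the replicate number as a block, 5 of 9 members passed on polysomes, where the block adds AMD1 and OAZ2, beside 20.3% of all genes (10.6% higher, 9.72% lower). In the cytosol 4 of 9 passed with the block, which adds OAZ2, beside 24.9% of all genes (13.9% higher, 11% lower). The treatment groups did not overlap for 4 of 9 members on polysomes (SRM, SAT1, SMOX and OAZ2), beside 19.3% of all genes. They did not overlap for 4 of 9 in the cytosol either (AMD1, SAT1, SMOX and OAZ1), beside 17.7% of all genes. Leaving out replicate 2 reduced the polysome calls to 1, SAT1.

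Polysome association, the PP242 effect on polysomes minus that in the cytosol, passed for none of the 9 genes in limma and for 0% of all genes, 0 of 19777, while 1750 genes (8.85%) had an unadjusted p under 0.05. OAZ1, at 0.27 ± 0.12 (limma, adjusted p = 0.558), was the 1 member among those 1750 genes and was above 0 in 4 of 4 numbers. AZIN1 had -0.44 ± 0.23 (adjusted p = 0.569), below 0 in 4 of 4 numbers, but 0.51 at its second probe set, where Total 242 arrays 2 and 4 were low. SRM had -0.40 ± 0.22 (adjusted p = 0.576), with values of -0.53, -0.66, 0.15 and -0.54 in replicate numbers 1 to 4. ODC1 had -0.29 ± 0.30, SMS 0.34 ± 0.22, SAT1 0.24 ± 0.19, AMD1 0.16 ± 0.29, SMOX 0.16 ± 0.18 and OAZ2 -0.06 ± 0.22. Without Total 242 arrays 2 and 4, SMS was at -0.02, ODC1 at 0.01 and SRM at -0.13. Without replicate 3 in all groups, SRM was at -0.58 (limma, adjusted p = 0.346).

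A regression of polysome on cytosolic values per gene, with treatment as a term, passed 689 genes, or 3.48%. It was a least squares fit per gene with variances moderated by limma. Arrays of the same replicate number were matched, a pairing that the values do not settle. SRM was the member among the genes that passed, with a treatment term of -0.49 ± 0.11 (moderated regression, adjusted p = 0.0297) at a slope of 0.21 on the cytosolic value. ODC1 had -0.30 ± 0.14 (adjusted p = 0.285), AZIN1 -0.36 ± 0.17 (0.261), OAZ2 -0.27 ± 0.14 (0.324) and SMOX 0.46 ± 0.19 (0.196). OAZ1, the member with an unadjusted p under 0.05 by subtraction, had 0.007 ± 0.41 in this regression (adjusted p = 0.996). A slope under 1 removes less of the cytosolic difference than plain subtraction does. At its slope of 0.21, the SRM term of -0.49 stayed close to the SRM polysome difference of -0.52. For SRM, subtraction and regression differed in the call and gave the same direction. The subtraction value of SRM was -0.395 over all arrays and -0.13 without the cytosolic PP242 arrays that stood apart over the whole table. That subset keeps cytosolic PP242 replicate 3, the array far below the rest for SRM. Without replicate 3 in all groups the subtraction value was -0.58. The regression included all of these arrays and was not rerun without any of them. Whether its SRM call reflects more than the fall on polysomes was not tested.

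The level on polysomes over that in the cytosol was also read within each treatment. Array medians were 5 to 5.05 in the cytosolic pool and 4.57 to 4.63 in the polysome pool, so a value of 0 has no fixed meaning across pools, and the median gene stood at -0.16 in vehicle and -0.18 in PP242 cells. Of the genes called, 31.9% were higher on polysomes in vehicle cells, and 54.1% or 52.7% after quantile or cyclic loess scaling over all arrays. In PP242 cells these shares were 29.7%, 51.5% and 52.4%. In vehicle cells 3 of 9 members passed (2 higher, 1 lower), beside 52.7% of all genes (16.8% higher, 35.9% lower). In PP242 cells 5 of 9 passed (3 higher, 2 lower), beside 54.1% of all genes (16.1% higher, 38.1% lower). With the block these counts were 5 (2 higher, 3 lower), beside 59.2% (19.5% and 39.7%), and 7 (3 higher, 4 lower), beside 60.3% (18.8% and 41.5%). The pools did not overlap for 4 members in either treatment, beside 53.2% of all genes in vehicle and 42.4% in PP242 cells, which puts the share of members near or under that of all genes.

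AZIN1 was the member with the lowest polysome over cytosolic level, -1.41 ± 0.16 in vehicle cells (limma, adjusted p = 1.37e-06; percentile 1.12 of all genes) and -1.84 ± 0.16 with PP242 (adjusted p = 6.53e-08; percentile 0.101). This held for probe set 212461_at under each scaling. In contrast, 201772_at gave 0.11 and 0.62, the latter with a limma adjusted p of 0.0168, and 213747_at gave -0.48 and -0.53. Over all arrays the mean signals of 212461_at and 201772_at were 8.203 and 8.2025. The choice between them was thus almost a tie, and the AZIN1 values, percentiles and calls hold for 212461_at alone. SRM was at -0.37 ± 0.16 in vehicle cells (adjusted p = 0.0536, 0.0231 with the block) and -0.76 ± 0.16 with PP242 (adjusted p = 4.40e-04). The SRM value with PP242 was -0.50 without Total 242 arrays 2 and 4, and -0.89 without replicate 3 in all groups. AMD1 was at -0.45 ± 0.21 and -0.29 ± 0.21 (adjusted p = 0.0750 and 0.249; 0.00184 and 0.0300 with the block), and its second probe set passed in both treatments, at -0.73 and -0.64 (adjusted p = 0.00196 and 0.00509). OAZ2 was at -0.25 ± 0.15 and -0.30 ± 0.15 (adjusted p = 0.193 and 0.109; with PP242 0.0228 under the block), and its second probe set, 201365_at, passed in both, at -0.83 and -1.02 (adjusted p = 7.74e-04 and 1.14e-04). Under quantile and cyclic loess scaling the vehicle values of AMD1 (-0.67 and -0.63) and SRM (-0.59 and -0.57) passed as well.

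OAZ1 was at 0.29 ± 0.08 in vehicle cells (limma, adjusted p = 0.00802) and 0.56 ± 0.08 with PP242 (adjusted p = 2.44e-05), but its vehicle value turned to -0.04 after quantile and -0.25 after cyclic loess scaling. Its PP242 value was 0.23 after quantile scaling (adjusted p = 0.0375) and 0.10 after cyclic loess, where the call was lost (adjusted p = 0.383). At the second OAZ1 probe set the vehicle value was 0.28 and did not pass (adjusted p = 0.116). SMOX was at 0.49 ± 0.13 and 0.64 ± 0.13 at 210357_s_at, while its other probe sets ran from -0.81 to -1.41. SMS was at 0.13 ± 0.16 in vehicle cells and 0.47 ± 0.16 with PP242 (adjusted p = 0.0177), the latter 0.11 without Total 242 arrays 2 and 4 (adjusted p = 0.451). Its vehicle value turned to -0.21 and -0.24 under quantile and cyclic loess scaling. ODC1 (0.22 and -0.07) and SAT1 (-0.20 and 0.04) did not pass in either treatment as deposited, and under those scalings the vehicle value of ODC1 and the PP242 value of SAT1 changed sign. The vehicle value of SAT1 passed under both, at -0.37 (adjusted p = 0.0337) and -0.43 (adjusted p = 0.0157).

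**Figure D4:**
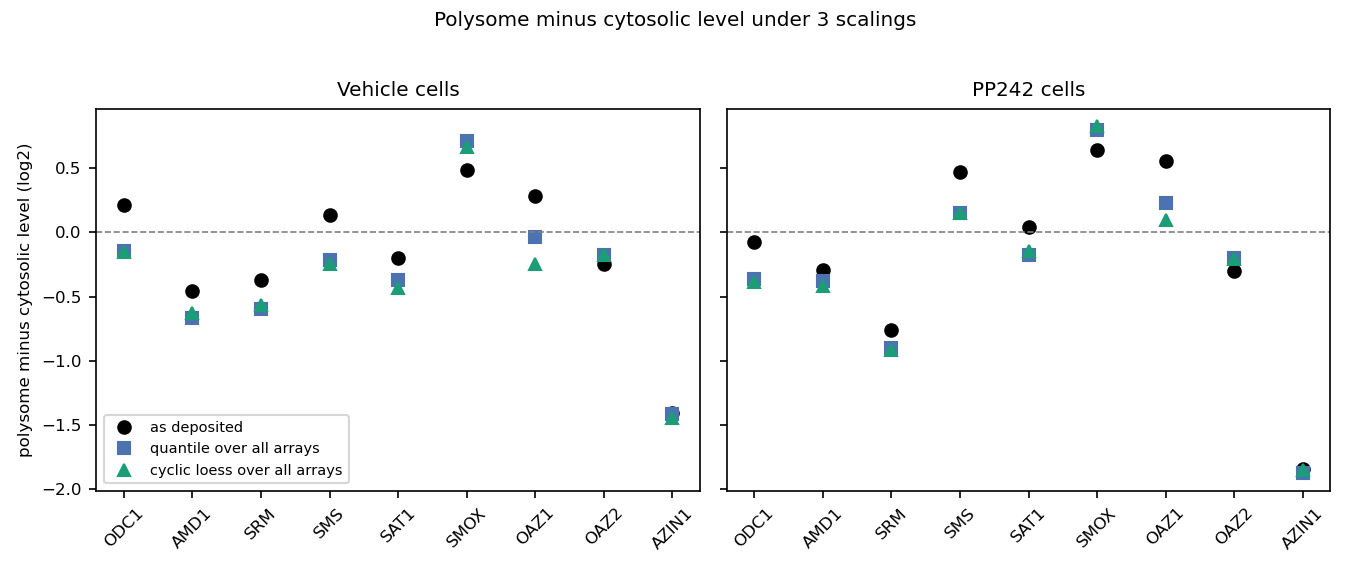
Polysome minus cytosolic level (log2) of the 9 genes in vehicle and PP242 cells, as deposited and after quantile and cyclic loess scaling over all 16 arrays. AZIN1 lay between -1.41 and -1.88 in each, while ODC1, SMS and OAZ1 in vehicle cells lay on different sides of 0 depending on the scaling.

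The other genes of the pathway came from a list of 40 that act next to the members, of which 38 were measured. On polysomes 1 was higher, 9 were lower and 28 did not pass, beside 6.82% higher and 6.55% lower among all genes, with a median of -0.15. In the cytosol 2 were higher, 7 lower and 29 did not pass, beside 8.54% and 7.91% of all genes, with a median of -0.06. With the replicate number as a block the counts were 1 higher and 12 lower on polysomes, beside 10.6% and 9.72% of all genes, and 5 higher and 10 lower in the cytosol, beside 13.9% and 11%. The block adds APIP, DHPS (-0.33, adjusted p = 0.0489) and SLC12A8 (-0.29, 0.0483, at group means of 3.40 to 4.21, under the array medians) on polysomes. In the cytosol it adds ARG1, OAT, SAT2, ADI1, MAT2A, which makes S-adenosylmethionine (0.43, adjusted p = 0.00974 with the block and 0.293 without), and ATP13A3, a polyamine importer (-0.46, 0.0466 with the block). None passed for association.

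Methionine salvage, which returns the methylthioadenosine released by SRM and SMS to methionine, held the most calls on polysomes: 4 of its 7 genes were lower and none higher, beside 6.55% and 6.82% of all genes, and 5 were lower with the block. ENOPH1, the enolase-phosphatase of this route, fell by 0.65 ± 0.13 on polysomes (limma, adjusted p = 0.00252) and by 0.71 in the cytosol (adjusted p = 0.00117). GOT1, an aminotransferase, fell by 0.59 and 0.37 in the 2 pools, ADI1, the dioxygenase, by 0.57 on polysomes, and MRI1, the isomerase, by 0.49 on polysomes. In the cytosol ADI1 was at -0.36 (adjusted p = 0.0523, 0.0117 with the block). APIP, the dehydratase, fell by 0.79 in the cytosol (adjusted p = 0.00181), and its polysome difference was -0.41 (adjusted p = 0.101, 0.0261 with the block). MTAP, which opens the route and is described as deleted in this line, had group means of 4.54 to 4.73, close to the array medians, with no call.

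ARG2, the mitochondrial arginase that makes ornithine, fell by 0.98 ± 0.25 on polysomes (limma, adjusted p = 0.0127) and by 0.77 in the cytosol (adjusted p = 0.0426). The other 5 genes of ornithine and arginine supply did not pass without the block, and with it ARG1 (0.29, adjusted p = 0.0462) and OAT (-0.25, 0.0443) passed in the cytosol. ARG1 had group means of 3.36 to 4.375, under the array medians of each pool. PAOX, the peroxisomal oxidase that acts after SAT1, rose by 0.61 ± 0.17 on polysomes (adjusted p = 0.0211) and by 0.57 in the cytosol (adjusted p = 0.0278), while OAZ3 did not pass and SAT2, a relative of SAT1, passed only in the cytosol with the block (0.44, adjusted p = 0.0128, 0.0877 without). Of the 4 hypusine genes, which use spermidine to modify the factor eIF5A, DOHH fell by 0.47 on polysomes and EIF5A2 by 0.46 in the cytosol. AHCYL1, placed in the methionine cycle list, fell by 0.34 on polysomes, while AHCY of that list did not pass there (-0.255, adjusted p = 0.200).

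Of 13 transport genes measured, SLC3A2 and SLC47A1 fell on polysomes, by 0.85 ± 0.27 and 0.65 ± 0.12 (limma, adjusted p = 0.0428 and 9.85e-04). In the cytosol SLC47A1, a cation extruder, fell by 0.46, SLC18B1, a vesicular polyamine carrier, fell by 0.60, and ATP13A2, the lysosomal polyamine exporter, rose by 0.54 ± 0.16 (adjusted p = 0.0227). SAT1 and PAOX, consecutive enzymes of one breakdown route, were thus both higher in both pools.

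**Figure D5:**
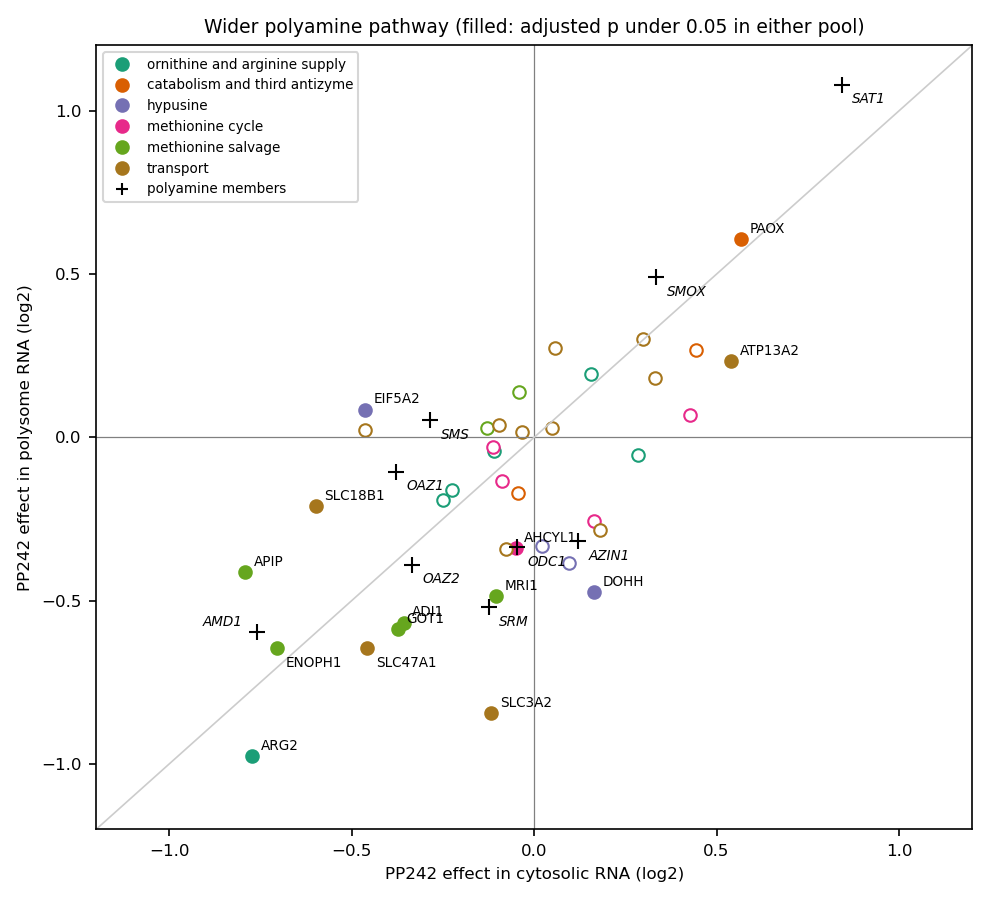
PP242 minus vehicle (log2) in cytosolic RNA (x) against polysome RNA (y) for the 9 members (crosses) and the 38 measured pathway genes (circles coloured by role, filled where the adjusted p was under 0.05 in either pool); the diagonal marks equal effects. SAT1 and PAOX lie at the upper right and AMD1, ENOPH1 and ARG2 at the lower left.

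The genes nearest to each member called in a pool were found by the root mean square difference over the 16 arrays, with each gene centred within each RNA pool. The nearest genes lie below the median gene by construction, so the median gives a scale and is not a test of likeness. For AMD1 they were LARP4, SUZ12 and FBXO45, at 0.139 to 0.142 beside 0.50 for the median gene. For SRM they were PITHD1, MRPS7 and YRDC, at 0.0920 to 0.0963 beside 0.323. The nearest to SAT1 were ERMAP, PLXNA3 and NIPAL2, at 0.156 to 0.165 beside 0.536. SMOX was nearest to GMIP, PLAAT1 and GRIP2 (0.104 to 0.109 beside 0.305), and OAZ1 to CCDC177, POMP and HINT1 (0.0798 to 0.0977 beside 0.257).

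The labelled cell type was checked against markers. KRT8, KRT18 and VIM had group means of at least 11.4, KRT19 ran from 9.29 to 11.9, and EPCAM was at 2.61 to 2.98, near the low end of the scale. CDKN2A, described as deleted in this line beside MTAP, was at 5.70 to 6.11. Of the markers of other cells, 4 measured leukocyte genes lay between 2.66 and 6.15, 4 endothelial genes between 2.17 and 6.02, and 4 genes of normal pancreas between 2.25 and 5.72, and none of these passed in either pool. Among 5 fibroblast genes COL1A2 (group means 10.96 to 12.2) and COL3A1 (6.08 to 7.56) were lower with PP242 in both pools. COL1A1 (6.625 to 7.15), DCN (5.13 to 5.26) and LUM (3.24 to 3.325) passed in neither pool. KRT19 rose in both pools, KRT18 rose in both, and KRT8 rose in the cytosol. KRT7, at group means of 6.29 to 6.40, did not pass (0.03 on polysomes and -0.08 in the cytosol). The part of these genes in the results above was not tested. Correlations between arrays of a group ran from 0.979 to 0.998.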

How the data were processed

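The labels name 16 Affymetrix arrays, 4 per group, hybridised with RNA labelled by the 3-prime IVT Express kit. The deposited values are log2 probe set signals made by the authors; the submitters' processing notes name RMA without a version or settings. They run from 1.65 to 14.61 with 0 missing. The arrays of each pool appear to have been normalized apart from those of the other pool, so a treatment effect is relative to the other mRNAs of its pool, and a loss shared by all mRNAs would not show.

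Of 54613 probe sets, 41091 list 1 gene in the annotation and were used, 1801 list several and 11721 list none. Where a gene had several (10523 genes), the one of highest mean signal was kept, leaving 19777 genes. limma 3.58.1 in R 4.3.3 fitted 1 mean per group over all arrays, with eBayes and an intensity trend. Tests are two-sided, adjusted by Benjamini-Hochberg over all genes, with calls at 0.05, and the steps were tested on simulated data. Array number limits the precision. Whether replicates came from separate cultures is not in the labels, so p-values refer to the spread between these samples, which may be technical, and in bulk RNA fewer cells and less RNA per cell cannot be told apart.

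Deviations of arrays with the same replicate number correlated above 0.1 in 16 of 16 pairs of groups compared directly (0.164 to 0.510) and in 23 of 24 pairs in all. The best match of an array in another group carried its own number in 35 of 48 choices. Different numbers also correlated within 1 and 2 and, mostly, within 3 and 4. Examples are Total NT 2 with Poly NT 1 (0.447) and Total NT 4 with Poly NT 3 (0.406). Correlations across these 2 sets were negative. Same-number values thus cannot tell pairs from 2 sets of numbers. For the block the numbers were taken as pairs. Where the block changes the call of a member at its main probe set or of a pathway gene, its value is given. Alternatives were the block, array weights, no trend, the compared arrays alone, quantile or cyclic loess scaling, a filter on dim genes, other probe sets, each replicate left out, Total 242 arrays 2 and 4 left out, replicate numbers in pairs, and a regression.

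Genes named are the 9 members, each called gene of the pathway list and MTAP, the 3 nearest genes to each member called in a pool, and the marker genes. The members and lists were chosen with earlier results of these data known. Gene positions and promoter sequences are from RefSeq tables of GRCh38.p14.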

Additional observations from a re-analysis of the deposited data

Results flagged for a closer look

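In 36 sets of 4 arrays (9 genes in 4 groups), the highest or lowest array was compared with the spread of its group by Dixon's ratio, where chance passes about 1 in 20. SAT1 in Total NT replicate 3 was at 9.13, below the next array at 9.29, a gap of 0.889 of the group's range, past the critical ratio for 4 values. OAZ1 in Total NT replicate 3 was at 12.92, above the next array at 12.86, a gap of 0.857 of the range, also past it. Both gaps are small beside the PP242 differences of these genes in cytosolic RNA, 0.84 and -0.38, which passed the test without replicate 3 as well.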

How the results depend on the processing

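With the replicate number as a block, 5 members and 4020 genes passed on polysomes, 4929 genes in the cytosol, and 5 members for polysome over cytosolic level in vehicle cells. That last count was 5 with array weights, quantile scaling or the mean of probe sets, 6 with cyclic loess and 1 within numbers 3 and 4; in PP242 cells it was 3 with cyclic loess and 2 within numbers 3 and 4. Within numbers 3 and 4, 1089 genes passed on polysomes, 1058 in the cytosol, and 6422 and 6740 for polysome over cytosolic level in vehicle and PP242 cells. In the cytosol 2069 genes passed over its own 8 arrays and 1976 without Total 242 arrays 2 and 4. Among genes above the median level, 5590 and 5099 passed for polysome over cytosolic level in vehicle and PP242 cells. For association 1 gene passed with the mean of probe sets, and 689 genes and 1 member with the regression. Leaving out each replicate in turn gave 1627 to 1889 genes and 1 to 3 members on polysomes and 1543 to 3319 genes in the cytosol; on polysomes the lowest counts were without replicate 2.

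The following values changed sign. Under quantile and cyclic loess scaling, the cytosolic effect of ODC1 was 0.017 and 0.013. Polysome over cytosolic level in vehicle cells was -0.15 and -0.15 for ODC1, -0.21 and -0.24 for SMS, and -0.0375 and -0.25 for OAZ1, and in PP242 cells -0.18 and -0.14 for SAT1. The polysome effect of OAZ1 was 0.055 under cyclic loess. With the mean of probe sets AZIN1 was at -0.093 in the cytosol and 0.0067 for association, and SMOX at -0.16 for association and -0.43 and -0.59 for polysome over cytosolic level in vehicle and PP242 cells. Probe set 201772_at of AZIN1 gave 0.065 on polysomes, -0.45 in the cytosol, 0.51 for association, and 0.11 and 0.62 for polysome over cytosolic level. Probe set 1555680_a_at of SMOX gave -0.23, -0.0275 and -0.21 for the same 3 effects, and -0.81 and -1.01 for the level. Probe set 217074_at gave -0.17 on polysomes, -0.43 for association, and -0.98 and -1.41 for the level. Probe set 213988_s_at of SAT1 gave -0.21 in PP242 cells.

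Without Total 242 arrays 2 and 4 the cytosolic effect was 0.075 for SMS and -0.11 for AZIN1. Association was then 0.01 for ODC1, -0.0225 for SMS and 0.02 for OAZ2, and polysome over cytosolic level in PP242 cells was 0.23 for ODC1 and -0.01 for SAT1. Within numbers 1 and 2 SMS was at -0.005 on polysomes, and ODC1 at 0.18 and SRM at 0.13 in the cytosol. Within numbers 3 and 4 association was 0.11 for OAZ2, and the PP242 level was 0.11 for ODC1 and -0.09 for SAT1. The regression gave -0.00027 for SMS and -0.069 for SAT1. Leaving out each replicate in turn, association of OAZ2 ran from -0.12 to 0.047, the PP242 level of SAT1 from -0.013 to 0.18 and of ODC1 from -0.23 to 0.063, the cytosolic effect of ODC1 from -0.18 to 0.15 and of SRM from -0.24 to 0.08, and the polysome effect of SMS from -0.01 to 0.10. The cause of these changes was not tested.

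Of the called effects, SAT1 on polysomes kept its direction and call under all 17 alternatives run for it. The values rest on 4 arrays per group, signals of different probe sets cannot be set against each other, and the deposited scaling hides a change shared by all mRNAs of a pool. The block changed no call of the members in the cytosol or on polysomes other than AMD1 and OAZ2.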
